A study of Mus musculus with 11 samples.

Results

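Mouse liver tumour lines carrying TAZ-S89A were compared with lines carrying YAP-5SA across all measured genes. The comparison took the 5 libraries labelled TAZ-S89A and the 3 labelled YAP-S5A, which the text of the series spells YAP-5SA, or 8 of the 11 libraries of the series. The other 3 libraries came from YAP-S127A lines and entered 1 alternative fit only. All 8 hold RNA of cell lines grown from liver tumours with the named mutant, and the labels name no treatment, time, strain or age. A line without a mutant was not analysed here. The sources name neither the promoter that drives the mutants nor the clone, culture or tumour behind each library. Each p-value therefore reflects how far these 8 libraries scatter, possibly for technical reasons, and mutant and line cannot be told apart.

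YAP, the product of Yap1, and TAZ, the product of Wwtr1, are paralogous coactivators that lack a DNA-binding domain and work mainly through the TEAD transcription factors. The LATS kinases of the Hippo pathway phosphorylate serines of both proteins, which keeps them in the cytoplasm and marks them for breakdown. Replacing such serines with alanine leaves the protein active. TAZ-S89A is changed at a single serine, and YAP-5SA at several. In the liver, active YAP or TAZ is known for driving organ growth and tumours with features of bile duct and progenitor cells.

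The libraries held 20071144 to 42294516 counts in TAZ-S89A and 40377647 to 49159713 counts in YAP-5SA. Levels are given as CPM, counts scaled to a common library size with TMM factors. Spread between libraries beyond counting error, as a coefficient of variation, was 0.246 in TAZ-S89A and 0.172 in YAP-5SA. Pearson's r of log2 CPM across genes was 0.975 to 0.996 within the groups and 0.830 to 0.851 between them. TAZ-S89A replicates 4 and 5, set apart by a second range of sample ID numbers, had the lowest chi-square per degree of freedom, 2.08. Replicates 1 and 2 of TAZ-S89A had 5.98, and the remaining pairs within a group had 16.8 to 236. By r, replicates 1 and 2 were the most alike, at 0.996, against 0.993 for replicates 4 and 5, which held fewer counts. The coefficient of variation was 0.176 among TAZ-S89A replicates 1 to 3 and 0.028 between replicates 4 and 5. No pair was counted as a single sample, but these values cannot show whether alike pairs are repeats of 1 sample. Mitochondrially encoded genes took 3.63 ± 1.05% of counts in TAZ-S89A and 2.28 ± 0.58% in YAP-5SA (SD, n = 5 and 3, exact permutation test, two-sided, p = 0.107, where the smallest possible p is 0.0179).

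Most tested genes differed. Of 17497 genes tested, 9524 (54.4%) were called, 4663 (26.7%) higher and 4861 (27.8%) lower in TAZ-S89A. A call means that edgeR's quasi-likelihood test gave a p under 0.05 after Benjamini-Hochberg adjustment over all genes tested. At 5878 genes (33.6%) the call came with a log2 fold change of at least 1, which was positive at 2656 (15.2%) and negative at 3222 (18.4%). The median log2 fold change over all genes was 0.01. The libraries of the groups did not overlap at 9260 genes (52.9%). Among the calls, 860 came with some overlap. Very large differences leaned to lower levels in TAZ-S89A, since 668 called genes were at least 5 log2 units lower and 189 were at least as much higher, with genes at 0 in a group put at their bound. With 54.4% of all genes called, a call alone sets no gene apart, and each gene group is read against these shares.

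Below, means carry the SD (n = 5 for TAZ-S89A, n = 3 for YAP-5SA), and a pair of numbers in parentheses is the log2 fold change of TAZ-S89A over YAP-5SA with its SE. In counts over a gene group, higher and lower mean called in that direction, with or without overlap of single libraries. Single genes named as higher or lower were called and also did not overlap between the groups. Gene groups were written from general knowledge of the pathways. Fold changes against a group with no count are lower bounds, computed against 3 counts over the group.

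**Figure D1:**
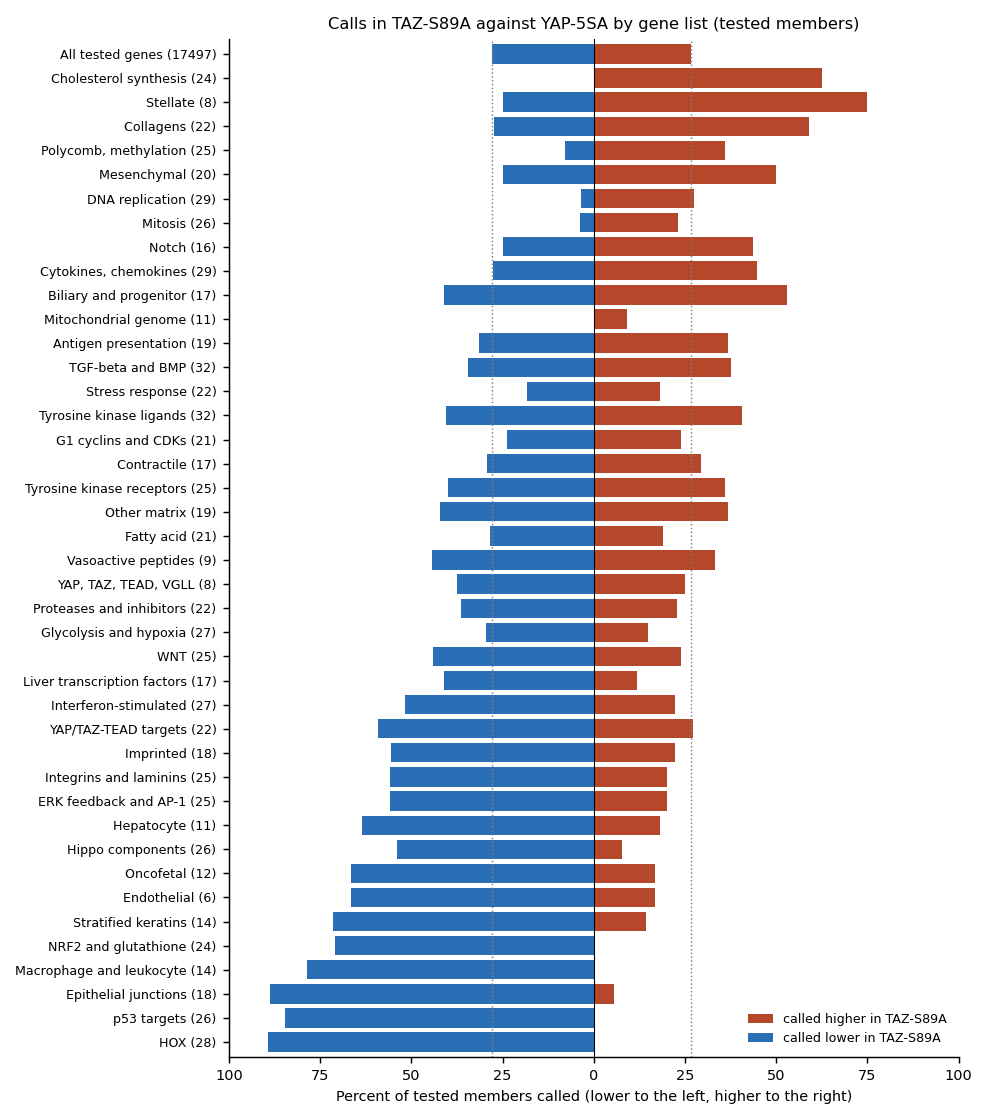
Share of tested members (number in brackets) of each gene group with at least 6 tested members called, in percent, with genes higher in TAZ-S89A to the right and genes lower in TAZ-S89A to the left, and dotted lines at the shares over all 17497 tested genes. Of the groups shown, HOX genes, epithelial genes and p53 targets reach furthest to the left, and stellate markers and cholesterol synthesis furthest to the right.

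The coactivators themselves and most of their standard target genes were lower in TAZ-S89A. Yap1 (Entrez 22601, GRCm38 chromosome 9, 7931999 to 8004638) had 55.9, 51.8, 67.2, 87.5 and 82.8 CPM in the TAZ-S89A libraries, against 164, 170.3 and 181 CPM in the YAP-5SA libraries. Every TAZ-S89A library was below every YAP-5SA library (-1.32, SE 0.20, adjusted p = 9.35e-05). Wwtr1 (Entrez 97064, chromosome 3, 57455644 to 57575910), which encodes TAZ, had 69.9, 68.5, 88.4, 102 and 97.5 CPM in the TAZ-S89A libraries, against 132, 150.1 and 141 CPM in the YAP-5SA libraries. It too was lower in TAZ-S89A (-0.72, SE 0.18, adjusted p = 0.00429). The counts do not separate the cell's own transcripts from those of an introduced copy, so neither gene checks the labels.

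The TEAD factors, which tether both coactivators to DNA, moved in opposite directions. Tead1 averaged 118 ± 22.6 CPM in TAZ-S89A and 239 ± 34.6 CPM in YAP-5SA (-1.02, SE 0.21, adjusted p = 0.0011). Tead2 averaged 96.4 ± 9.58 CPM in TAZ-S89A and 40.4 ± 2.96 CPM in YAP-5SA (1.26, SE 0.16, adjusted p = 2.03e-05), and Tead3, at 19.3 ± 1.79 CPM in TAZ-S89A and 11.5 ± 2.996 CPM in YAP-5SA, was also higher in TAZ-S89A (0.75, SE 0.19). Tead4 had 23.5 ± 1.96 CPM in TAZ-S89A and 26.4 ± 3.93 CPM in YAP-5SA and was not called (-0.17, SE 0.15, adjusted p = 0.362).

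Of 22 YAP and TAZ target genes, all tested, 13 were called lower, 6 higher and 3 not called, with a median log2 fold change of -0.68. Ccn2, a secreted matricellular protein, had 164, 151, 217, 341 and 347 CPM in the TAZ-S89A libraries, against 645, 608 and 656 CPM in the YAP-5SA libraries (-1.38, SE 0.30, adjusted p = 0.00158). Replicates 4 and 5 of TAZ-S89A were the highest of their group and still below all YAP-5SA libraries. Ccn1, its close relative, had 215, 198, 264, 319 and 322 CPM in the TAZ-S89A libraries, against 548, 474 and 545 CPM in the YAP-5SA libraries (-0.99, SE 0.23, adjusted p = 0.00264). Amotl2, an angiomotin that binds YAP and is part of its negative feedback, had 307, 294, 271, 261 and 266 CPM in the TAZ-S89A libraries, against 888, 639 and 925 CPM in the YAP-5SA libraries (-1.55, SE 0.22, adjusted p = 5.03e-05). Ankrd1, a nuclear ankyrin-repeat protein, went the other way, with 295, 292, 299.9, 302 and 301 CPM in the TAZ-S89A libraries, against 130.5, 126 and 139 CPM in the YAP-5SA libraries (1.17, SE 0.18, adjusted p = 0.000132). All 5 TAZ-S89A libraries held Ankrd1 at nearly the same level, above every YAP-5SA library.

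**Figure D2:**
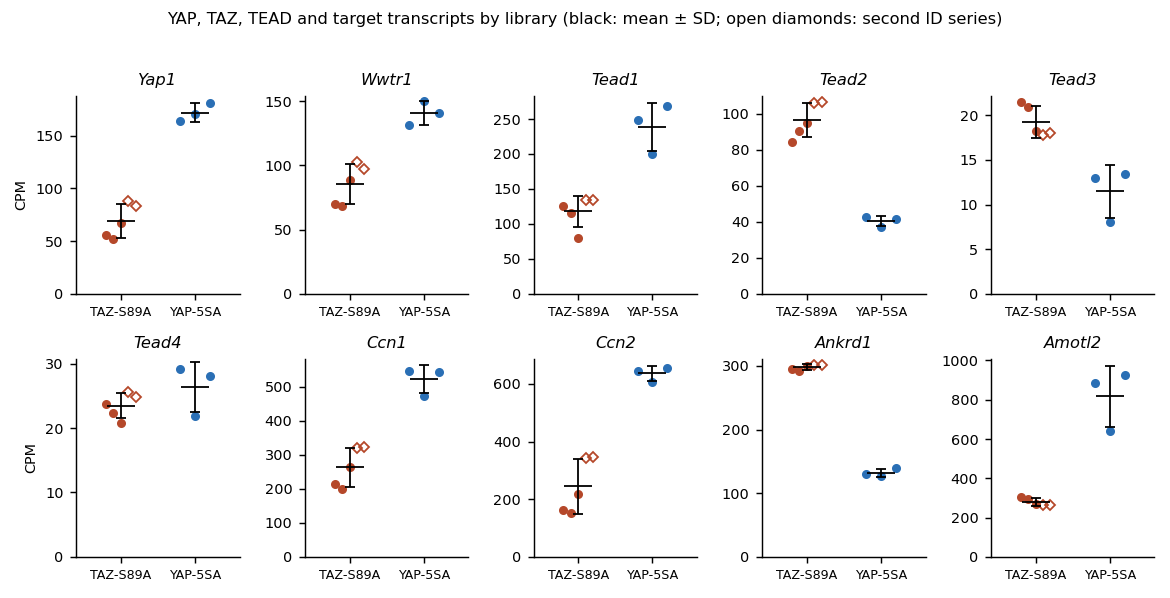
CPM of 10 genes in every library, on linear axes from 0, TAZ-S89A left (open diamonds, replicates 4 and 5) and YAP-5SA right, with black marks for mean ± SD (n = 5 and 3). Ankrd1, Tead2 and Tead3 were higher in TAZ-S89A, Tead4 overlapped between the groups, and the other 6 were lower.

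Further targets showed larger differences in both directions. Nt5e, an ectonucleotidase that makes adenosine, averaged 1.65 ± 0.337 CPM in TAZ-S89A and 13.5 ± 4.12 CPM in YAP-5SA (-3.04, SE 0.23), and Igfbp3, which binds insulin-like growth factors, averaged 150.5 ± 30.3 CPM in TAZ-S89A and 744 ± 150.5 CPM in YAP-5SA (-2.31, SE 0.23). Fjx1, a secreted relative of the Drosophila kinase four-jointed, averaged 29.1 ± 5.23 CPM in TAZ-S89A and 2.60 ± 0.191 CPM in YAP-5SA (3.48, SE 0.20). The RNA-binding protein gene Rbms3 averaged 5.26 ± 0.722 CPM in TAZ-S89A and 0.107 ± 0.0228 CPM in YAP-5SA (5.56, SE 0.30), although a further tested gene overlaps it in the annotation. Such overlaps, which make a count uncertain as the strand setting is not known, also touch Fat4, Ccnd1, Ccnd2, Cdkn2b, Cdk4, Orc1, Txnrd1, Scd2, Slc16a3, Hspa5, Alas2, Lama5, Lats1, Hoxc9, Igf2r, Fgf1, Dusp6, Igf2bp1, Stab1, Cygb, Tpm2, Tagln, Loxl2, Itgb4, Timp3, Cbx2, Cxcl16, Rnf43, Ctnnb1, Bmp4 and Ramp3, with a noncoding or small RNA partner at some of them.

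Promoter sequence is shown for Ccn1, Amotl2 and Ankrd1, given by library above, as 3 of the 6 targets whose promoters hold the core TEAD motif. Of the 6, 5 were called lower and 1, Ankrd1, higher. Each is the 250 bases before an annotated start (RefSeq, GRCm38.p6), 5′ to 3′ on the gene's strand. The motif, CATTCC or its reverse complement GGAATG, is in capitals. For Amotl2 the window lies inside the annotated gene, which begins at 102717091, so its start is an internal one. Ccn1 lies on the minus strand (chr3:145649986-145650235), Amotl2 on the plus strand (chr9:102717554-102717803) and Ankrd1 on the minus strand (chr19:36119845-36120094).
Ccn1: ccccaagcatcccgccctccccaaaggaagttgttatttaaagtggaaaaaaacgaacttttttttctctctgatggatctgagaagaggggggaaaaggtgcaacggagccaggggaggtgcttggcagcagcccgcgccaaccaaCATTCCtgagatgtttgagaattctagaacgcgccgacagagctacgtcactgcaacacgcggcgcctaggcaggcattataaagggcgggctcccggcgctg
Amotl2: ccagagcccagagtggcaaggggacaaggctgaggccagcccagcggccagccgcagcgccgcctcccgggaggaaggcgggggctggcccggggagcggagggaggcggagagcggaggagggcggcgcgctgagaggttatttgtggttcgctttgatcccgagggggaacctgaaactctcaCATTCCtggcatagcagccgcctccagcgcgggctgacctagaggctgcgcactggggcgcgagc
Ankrd1: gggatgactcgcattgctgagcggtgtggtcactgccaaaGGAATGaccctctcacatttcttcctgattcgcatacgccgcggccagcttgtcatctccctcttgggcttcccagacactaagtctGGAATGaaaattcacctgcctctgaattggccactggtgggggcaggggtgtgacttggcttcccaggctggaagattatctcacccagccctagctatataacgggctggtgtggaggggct
Ankrd1 held 2 matches, Ccn1 1 and Amotl2 1. Of the 22 targets, 15 had a promoter in the table, and 6 of these (40.0%) held the motif on either strand, against 12.6% of all 32851 promoters in the table and 13.3% of the 12262 tested genes that had one. A match describes the letters of the window and no binding was measured.

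Components of the Hippo pathway were lower more often than higher, with 14 of 26 lower, 2 higher and 10 not called (median -0.45), and with TAZ-S89A replicates 4 and 5 alone 4 were higher. The angiomotin Amotl1 averaged 42.9 ± 7.92 CPM in TAZ-S89A and 216 ± 39.97 CPM in YAP-5SA (-2.33, SE 0.20), so both angiomotins named here were lower. The giant cadherins Fat1 and Fat4 differed in direction. Fat1 averaged 78.5 ± 24.8 CPM in TAZ-S89A and 304 ± 46.96 CPM in YAP-5SA (-1.95, SE 0.25) and Fat4 74.8 ± 13.7 CPM in TAZ-S89A and 11.8 ± 1.73 CPM in YAP-5SA (2.66, SE 0.21). Both members higher in the fit of all 8 libraries, Fat4 and Fjx1, belong to the branch named after Drosophila Fat and Four-jointed. The kinase Map4k4 was not called, at 212 ± 27.5 CPM in TAZ-S89A and 232 ± 36.7 CPM in YAP-5SA. Of the kinases that phosphorylate YAP and TAZ, chosen after their values were seen, Lats1 averaged 84.7 ± 15.7 CPM in TAZ-S89A and 88.7 ± 5.17 CPM in YAP-5SA and was not called, and Lats2, itself a target, averaged 74.9 ± 7.70 CPM in TAZ-S89A and 115 ± 14.3 CPM in YAP-5SA (-0.61, SE 0.16).

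Epithelial keratins were lower in TAZ-S89A by large factors. Of 18 tested epithelial genes, 16 were lower in TAZ-S89A, and their summed level was 559 to 825 CPM in TAZ-S89A libraries and 5035 to 6595 CPM in YAP-5SA libraries. Krt7, a keratin of bile duct epithelium, had 1.05, 1.02, 2.54, 1.73 and 0.929 CPM in the TAZ-S89A libraries, against 1618, 2202 and 1417 CPM in the YAP-5SA libraries (-10.23, SE 0.43, adjusted p = 8.43e-10). Krt19, another duct keratin, averaged 7.67 ± 2.95 CPM in TAZ-S89A and 1373 ± 318 CPM in YAP-5SA (-7.49, SE 0.39). Krt8 and Krt18 pair in the filaments of simple epithelia. Krt8 averaged 7.04 ± 2.89 CPM in TAZ-S89A and 666 ± 126 CPM in YAP-5SA (-6.57, SE 0.37), while Krt18 was abundant in both groups, with 432 ± 107 CPM in TAZ-S89A and 2825 ± 483 CPM in YAP-5SA (-2.71, SE 0.28).

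Of the junction genes in the same list, Cldn3 and Dsp were lower. Cldn3, a tight junction claudin, averaged 0.0173 ± 0.0388 CPM in TAZ-S89A and 9.65 ± 1.97 CPM in YAP-5SA and was 801-fold lower by pooled counts, 95% interval 221 to 6623, from 2 counts in TAZ-S89A. Dsp, the desmosomal plaque protein desmoplakin, averaged 0.410 ± 0.194 CPM in TAZ-S89A and 25.97 ± 3.07 CPM in YAP-5SA (-6.03, SE 0.27). E-cadherin and Epcam, the usual defining markers of epithelium, were nearly silent in both groups. Cdh1 averaged 0.418 ± 0.257 CPM in TAZ-S89A and 1.54 ± 0.210 CPM in YAP-5SA (-1.88, SE 0.38), and Epcam, too low to be tested, averaged 0.0992 ± 0.0452 CPM in TAZ-S89A and 0.0820 ± 0.0825 CPM in YAP-5SA. The YAP-5SA lines showed keratins of simple epithelium at high levels beside these low adhesion markers.

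Keratins of stratified epithelium and cornified envelope genes were lower at 10 of 14 tested members, higher at 2 and not called at 2 (median -3.25), and with TAZ-S89A replicates 4 and 5 alone 1 was higher. Krt6a had no count in any TAZ-S89A library and 10.3, 14.4 and 8.76 CPM in the YAP-5SA libraries, at least 618-fold lower. Krt5, a basal cell keratin, also had none, against 1.24, 1.89 and 1.23 CPM in YAP-5SA. Of the small proline-rich proteins, Sprr1a averaged 73.2 ± 16.9 CPM in TAZ-S89A and 1211 ± 30.7 CPM in YAP-5SA (-4.05, SE 0.25) and Sprr1b 15.1 ± 2.55 CPM in TAZ-S89A and 0.0869 ± 0.0892 CPM in YAP-5SA (7.44, SE 0.40). Members of these families are similar in sequence and only uniquely aligned reads were counted, so reads may be missed unevenly between them.

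Collagens showed the opposite direction on balance, with 13 of 22 higher, 6 lower and 3 not called (median 1.15). Their summed level was 3673 to 5554 CPM in TAZ-S89A and 1185 to 1637 CPM in YAP-5SA. Col1a2, the alpha-2 chain of type I collagen, had 3030.0, 3118, 2059, 1596 and 1609 CPM in the TAZ-S89A libraries, against 14.9, 17.6 and 16.3 CPM in the YAP-5SA libraries (7.13, SE 0.44, adjusted p = 2.83e-08). Its partner chain Col1a1, chosen after its values were seen, went the other way, with 32.7, 37.2, 28, 30.5 and 31.6 CPM in the TAZ-S89A libraries, against 363, 253 and 356 CPM in the YAP-5SA libraries (-3.34, SE 0.19, adjusted p = 1.05e-08). Most type I collagen holds both chains, and the transcripts of the 2 moved in opposite directions between the groups. Both tested type VI chains of the neighbouring pair on chromosome 10 were higher, Col6a1 at 432 ± 159 CPM in TAZ-S89A and 4.25 ± 0.337 CPM in YAP-5SA (6.67, SE 0.41) and Col6a2 at 182 ± 70.4 CPM in TAZ-S89A and 2.73 ± 0.0692 CPM in YAP-5SA (6.06, SE 0.40). Col5a1, of fibril-nucleating type V collagen, averaged 481 ± 91.3 CPM in TAZ-S89A and 97.99 ± 22.3 CPM in YAP-5SA (2.30, SE 0.27). The basement membrane chain Col4a6 was lower, at 0.113 ± 0.0465 CPM in TAZ-S89A and 2.43 ± 0.508 CPM in YAP-5SA (-4.31, SE 0.32).

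Mesenchymal genes did not move as a block, with 10 of 20 higher, 5 lower and 5 not called (median 0.37). Pdgfrb, the PDGF receptor of pericytes and fibroblasts, had 318, 306, 235, 269 and 255 CPM in the TAZ-S89A libraries, against 1.19, 1.18 and 1.01 CPM in the YAP-5SA libraries (7.94, SE 0.28, adjusted p = 1.8e-10). Postn, a matricellular protein of activated stroma, averaged 30.7 ± 4.11 CPM in TAZ-S89A and 0.308 ± 0.0332 CPM in YAP-5SA (6.62, SE 0.23), and the secreted glycoprotein gene Fstl1 averaged 112 ± 31.8 CPM in TAZ-S89A and 1.18 ± 0.458 CPM in YAP-5SA (6.56, SE 0.36). Vim, the filament vimentin, was abundant in both groups and lower in TAZ-S89A, at 1693 ± 342 CPM in TAZ-S89A and 4293 ± 172 CPM in YAP-5SA (-1.34, SE 0.28). The homeobox gene Prrx1 was also lower, at 0.172 ± 0.134 CPM in TAZ-S89A and 11.5 ± 2.26 CPM in YAP-5SA (-6.00, SE 0.37).

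Contractile and matrix-modifying genes were split in direction. Of 17 contractile genes, 5 were higher, 5 lower and 7 not called, and the 58.8% called was near the 54.4% of all genes. The lower count was 3 without YAP-5SA replicate 1 and 3 without YAP-5SA replicate 3. Myh10, a nonmuscle myosin heavy chain, averaged 156 ± 55.4 CPM in TAZ-S89A and 1.28 ± 0.354 CPM in YAP-5SA (6.93, SE 0.40). Tagln and Acta2, both typical of smooth muscle and myofibroblasts, averaged 86.4 ± 64.7 CPM in TAZ-S89A and 2.37 ± 0.798 CPM in YAP-5SA (5.19, SE 0.74) and 54.5 ± 28.3 CPM in TAZ-S89A and 2.78 ± 0.213 CPM in YAP-5SA (4.29, SE 0.40). Tpm2, a tropomyosin, averaged 1.26 ± 0.389 CPM in TAZ-S89A and 96.9 ± 25.9 CPM in YAP-5SA (-6.23, SE 0.26), while Tpm1, at 813 ± 99.8 CPM in TAZ-S89A and 883 ± 95.5 CPM in YAP-5SA, was not called. Thbs1, the matricellular protein thrombospondin 1, averaged 494 ± 35.6 CPM in TAZ-S89A and 54.5 ± 10.3 CPM in YAP-5SA (3.18, SE 0.24), and the lysyl oxidase Loxl2 averaged 2.28 ± 0.324 CPM in TAZ-S89A and 119 ± 5.46 CPM in YAP-5SA (-5.70, SE 0.16).

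Integrins and laminins were lower at 14 of 25 tested members, higher at 5 and not called at 6. Itgb4, the laminin receptor subunit of hemidesmosomes, averaged 3.92 ± 0.520 CPM in TAZ-S89A and 515 ± 113 CPM in YAP-5SA (-7.03, SE 0.24), and the integrin subunit Itgb8, known for activating TGF-beta, averaged 13.4 ± 2.05 CPM in TAZ-S89A and 0.264 ± 0.0782 CPM in YAP-5SA (5.64, SE 0.27). The 2 most abundant members, Itga3 and Lama5, were not called, at 762 ± 150.0 CPM in TAZ-S89A and 744 ± 125 CPM in YAP-5SA and 769 ± 113 CPM in TAZ-S89A and 598 ± 157 CPM in YAP-5SA. Of 22 proteases and inhibitors, 5 were higher, 8 lower and 9 not called, and with TAZ-S89A replicates 4 and 5 alone 8 were higher. The 59.1% called was near the 54.4% of all genes. The collagenase gene Mmp13 averaged 0.392 ± 0.122 CPM in TAZ-S89A and 22.5 ± 9.79 CPM in YAP-5SA (-5.88, SE 0.31), the aggrecanase gene Adamts1 91.8 ± 14.1 CPM in TAZ-S89A and 3.10 ± 0.114 CPM in YAP-5SA (4.89, SE 0.20), and the inhibitor gene Timp3 86.5 ± 19.9 CPM in TAZ-S89A and 558 ± 16.6 CPM in YAP-5SA (-2.69, SE 0.22).

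**Figure D3:**
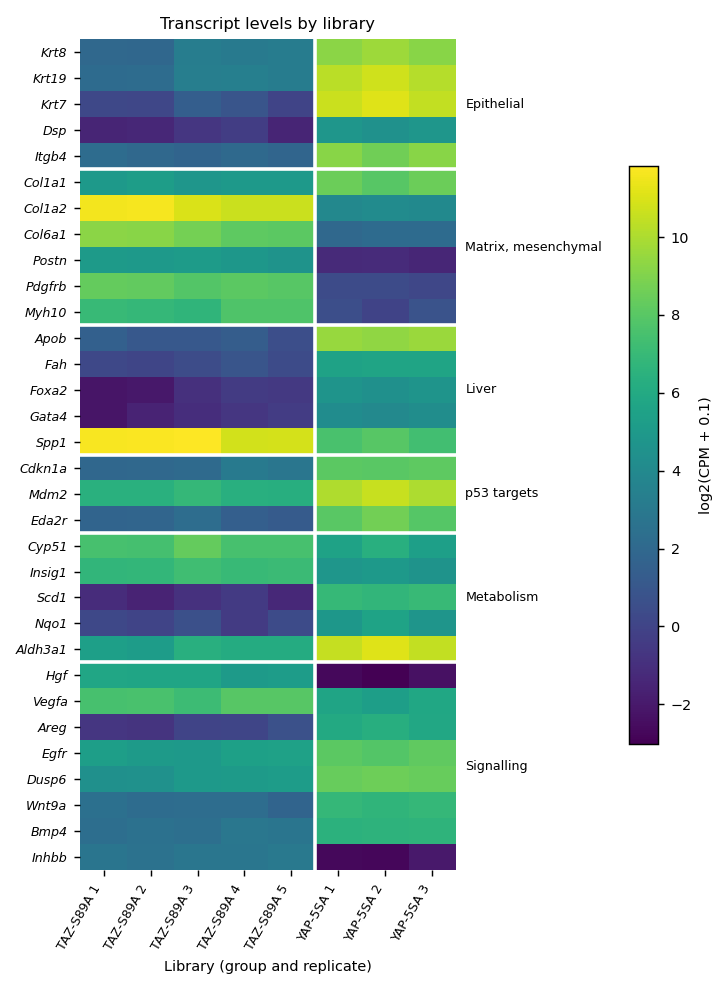
Level of named genes (rows, by kind) in each library (columns, TAZ-S89A left, YAP-5SA right) as log2(CPM + 0.1), with lighter colour for higher levels. The genes were picked for display with their values known, the groups do not overlap at any of them, and Col1a1 and Col1a2 run in opposite directions.

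HOX genes, the homeobox regulators laid out in 4 clusters that set position along the body axis, were mostly lower in TAZ-S89A. Of 39 genes, 28 were tested, of which 25 were lower in TAZ-S89A, none higher and 3 not called. The median log2 fold change was -9.24 with the genes at 0 in TAZ-S89A put at their bound. Of all tested genes 27.8% were called lower. The summed level of all 39 was 7.65 to 11.58 CPM in TAZ-S89A libraries and 583 to 748 CPM in YAP-5SA libraries. Hoxc6 had 0.0715, 0, 0.0295, 0.130 and 0.0443 CPM in the TAZ-S89A libraries, against 169, 129 and 192 CPM in the YAP-5SA libraries (-11.61, SE 0.36, adjusted p = 1.18e-10). Hoxb9 averaged 0.0264 ± 0.0395 CPM in TAZ-S89A and 83.6 ± 8.30 CPM in YAP-5SA and was 4604-fold lower by pooled counts, 95% interval 1575 to 22330.0, from 3 counts in TAZ-S89A. No TAZ-S89A library held a count of 6 Hoxc genes, Hoxc10, Hoxc13, Hoxc8 and Hoxc9 among them. These 4 averaged 47.2 ± 3.72 CPM, 24.5 ± 3.30 CPM, 16.7 ± 0.900 CPM and 12.4 ± 1.80 CPM in YAP-5SA, which makes Hoxc10 at least 2595-fold and Hoxc9 at least 681-fold lower in TAZ-S89A. The differences followed the clusters. All 9 tested Hoxb genes were lower, and the cluster summed to 0.0954 to 0.443 CPM in TAZ-S89A and 308 to 377 CPM in YAP-5SA. All 9 tested Hoxc genes were lower too, with sums of 0.0227 to 0.173 CPM in TAZ-S89A and 246 to 334 CPM in YAP-5SA. Of 8 tested Hoxa genes 5 were lower and 3 not called, with sums of 7.21 to 11.1 CPM in TAZ-S89A and 28.1 to 35.1 CPM in YAP-5SA. The Hoxd genes were nearly silent in both groups, at 0.0227 to 0.133 CPM in TAZ-S89A and 1.18 to 1.62 CPM in YAP-5SA in sum. Genes of a cluster overlap and share conserved sequence, so reads of shared stretches may be credited to a neighbour or not counted.

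**Figure D4:**
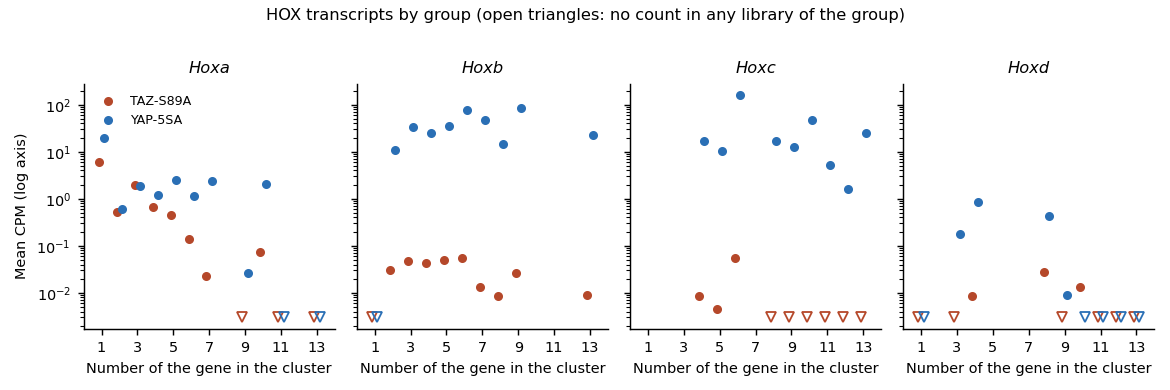
Mean CPM (log axis) of HOX genes by their number in each cluster, TAZ-S89A in red left of YAP-5SA in blue (n = 5 and 3 libraries), with an open triangle at the bottom for a gene with no count in a group. Hoxb and Hoxc means lie below 0.1 CPM or at 0 in TAZ-S89A and above 1 CPM in YAP-5SA, apart from Hoxb1, which had no count in either group.

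Polycomb proteins, known for silencing HOX clusters, and regulators of DNA methylation were higher at 9 of 25 tested genes, lower at 2 and not called at 14 (median 0.47). Of all tested genes 26.7% were higher and 27.8% lower. The share called, 44.0%, was below the 54.4% of all genes, and a link to the HOX levels was not tested. Of these, Cbx2, a reader subunit of the first Polycomb complex, averaged 48.3 ± 3.82 CPM in TAZ-S89A and 16.2 ± 2.04 CPM in YAP-5SA (1.58, SE 0.15), and Mtf2, an accessory subunit of the second, averaged 94.7 ± 2.87 CPM in TAZ-S89A and 33.8 ± 1.69 CPM in YAP-5SA (1.48, SE 0.14). Uhrf1, which couples DNA methylation to replication, averaged 75.3 ± 19.5 CPM in TAZ-S89A and 29.6 ± 4.33 CPM in YAP-5SA (1.35, SE 0.22). Phf19, a relative of Mtf2, was lower, at 2.25 ± 1.02 CPM in TAZ-S89A and 5.50 ± 0.376 CPM in YAP-5SA (-1.32, SE 0.30). The lower count was 1 without YAP-5SA replicate 2.

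Imprinted genes, expressed mainly from the allele of 1 parent, were lower at 10 of 18 tested members, higher at 4 and not called at 4 (median -1.34). Peg10 and Sgce, neighbours on chromosome 6 that are expressed from the paternal allele, were both higher. Peg10 averaged 18.2 ± 4.76 CPM in TAZ-S89A and 0.0951 ± 0.0814 CPM in YAP-5SA (7.57, SE 0.42) and Sgce 7.95 ± 2.40 CPM in TAZ-S89A and 0.208 ± 0.0566 CPM in YAP-5SA (5.24, SE 0.34). Ndn was lower, at 0.0623 ± 0.0744 CPM in TAZ-S89A and 11.7 ± 3.14 CPM in YAP-5SA (-7.39, SE 0.45). Slc22a18 averaged 0.0107 ± 0.0148 CPM in TAZ-S89A and 5.42 ± 0.325 CPM in YAP-5SA and was 449-fold lower by pooled counts, 95% interval 124 to 3713, from 2 counts in TAZ-S89A.

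Growth factor signalling differed in which ligand and receptor genes were on. Ligands of receptor tyrosine kinases were higher at 13 of 32 tested members and lower at 13. Hgf, the ligand of the receptor Met and a mitogen of hepatocytes that stellate cells normally secrete, had 54.5, 51.6, 51.9, 34.1 and 35.9 CPM in the TAZ-S89A libraries, against 0.0540, 0.0236 and 0.0982 CPM in the YAP-5SA libraries (9.53, SE 0.38, adjusted p = 4.72e-10). It was well expressed in all 5 TAZ-S89A libraries and nearly absent from the YAP-5SA libraries. Vegfa, an endothelial growth factor, averaged 204 ± 48.1 CPM in TAZ-S89A and 48.6 ± 8.72 CPM in YAP-5SA (2.07, SE 0.25). Fgf1 and Fgf5 were close to 0 in TAZ-S89A. Fgf1 averaged 0.0711 ± 0.0649 CPM in TAZ-S89A and 19.8 ± 1.02 CPM in YAP-5SA (-8.26, SE 0.32) and Fgf5 0.0486 ± 0.0723 CPM in TAZ-S89A and 14.6 ± 2.02 CPM in YAP-5SA (-8.30, SE 0.42). Both EGF receptor ligands named by the rule were lower, Areg at 0.875 ± 0.414 CPM in TAZ-S89A and 66.8 ± 10.8 CPM in YAP-5SA (-6.33, SE 0.29) and Hbegf at 85.3 ± 15.4 CPM in TAZ-S89A and 299.7 ± 12.9 CPM in YAP-5SA (-1.81, SE 0.19).

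Receptors were higher at 9 of 25 tested members, lower at 10 and not called at 6. Egfr, the receptor of Areg and Hbegf, chosen after its values were seen, was lower, at 38.5 ± 5.72 CPM in TAZ-S89A and 268 ± 29.4 CPM in YAP-5SA (-2.80, SE 0.18). Mertk, a receptor for uptake of dying cells, averaged 0.0446 ± 0.0267 CPM in TAZ-S89A and 2.55 ± 0.225 CPM in YAP-5SA (-5.79, SE 0.35), and Igf2r, which clears insulin-like growth factor 2, averaged 2.38 ± 0.542 CPM in TAZ-S89A and 62.4 ± 8.42 CPM in YAP-5SA (-4.72, SE 0.20). Among ephrin receptors, Ephb2 averaged 3.80 ± 1.24 CPM in TAZ-S89A and 0.390 ± 0.0301 CPM in YAP-5SA (3.26, SE 0.33) and Epha2 234 ± 34.7 CPM in TAZ-S89A and 403 ± 68.8 CPM in YAP-5SA (-0.78, SE 0.21).

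ERK pathway feedback and AP-1 genes were lower at 14 of 25 members, higher at 5 and not called at 6 (median -0.72). The feedback inhibitor gene Dusp6, a phosphatase of ERK, had 21.3, 22.4, 30.7, 33.7 and 35.9 CPM in the TAZ-S89A libraries, against 331, 369.5 and 332 CPM in the YAP-5SA libraries (-3.58, SE 0.21, adjusted p = 1.91e-08), and Spry4, a sprouty inhibitor, averaged 0.267 ± 0.227 CPM in TAZ-S89A and 7.67 ± 0.339 CPM in YAP-5SA (-5.03, SE 0.47). The early growth response genes were higher, Egr1 at 77.4 ± 16.2 CPM in TAZ-S89A and 7.49 ± 1.97 CPM in YAP-5SA (3.37, SE 0.25) and Egr2 at 1.54 ± 0.398 CPM in TAZ-S89A and 0.158 ± 0.00956 CPM in YAP-5SA (3.25, SE 0.35). Myc was not called, at 168 ± 25.3 CPM in TAZ-S89A and 163 ± 20.6 CPM in YAP-5SA.

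Target genes of p53, the damage-response factor that halts the cell cycle or triggers cell death, were lower at 22 of 26 tested members and higher at none, with 4 not called and a median of -2.40. In a fit with TAZ-S89A replicates 4 and 5 alone, 2 were higher. Cdkn1a, the cell cycle inhibitor p21, had 3.79, 3.89, 4.22, 8.28 and 6.99 CPM in the TAZ-S89A libraries, against 274, 258 and 288 CPM in the YAP-5SA libraries (-5.67, SE 0.28, adjusted p = 3.49e-09). Mdm2, the ubiquitin ligase that degrades p53, had 85.4, 84.6, 116, 82.1 and 79.7 CPM in the TAZ-S89A libraries, against 1056, 1552 and 1046 CPM in the YAP-5SA libraries (-3.77, SE 0.25, adjusted p = 4.51e-08). Ccng1, a cyclin that p53 induces, had 112, 116, 164, 114 and 118 CPM in the TAZ-S89A libraries, against 1387, 2015 and 1264 CPM in the YAP-5SA libraries (-3.64, SE 0.26, adjusted p = 1.01e-07). For Mdm2 and Ccng1 replicate 3 of TAZ-S89A was the highest of its group and stayed far below YAP-5SA. Eda2r, a death receptor, averaged 3.34 ± 0.978 CPM in TAZ-S89A and 304 ± 85.1 CPM in YAP-5SA (-6.50, SE 0.28), and Pmaip1, the proapoptotic protein NOXA, averaged 7.31 ± 1.12 CPM in TAZ-S89A and 112 ± 9.83 CPM in YAP-5SA (-3.94, SE 0.16). Trp53, the gene of p53 itself, chosen after its values were seen, overlapped between the groups at 156 ± 32.8 CPM in TAZ-S89A and 144 ± 12.5 CPM in YAP-5SA and was not called. No sequence variant was examined, so whether p53 is intact in either group was not tested.

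Cyclins and kinases of G1 were higher at 5 of 21 members, lower at 5 and not called at 11. The share called, 47.6%, was below the 54.4% of all genes. The higher count was 3 without any 1 of TAZ-S89A replicates 4 or 5 or YAP-5SA replicates 1 or 3. Ccnd1 and Ccnd2, the D-type cyclins that drive entry into S phase, averaged 208 ± 80.05 CPM in TAZ-S89A and 2023 ± 160.1 CPM in YAP-5SA (-3.28, SE 0.32) and 97.3 ± 12.6 CPM in TAZ-S89A and 786 ± 55.6 CPM in YAP-5SA (-3.01, SE 0.21). The inhibitor gene Cdkn2b was higher, at 82.8 ± 24.1 CPM in TAZ-S89A and 20.4 ± 3.51 CPM in YAP-5SA (2.02, SE 0.24), and Cdk4, the partner of D-type cyclins, was not called, at 753 ± 274 CPM in TAZ-S89A and 555 ± 152 CPM in YAP-5SA.

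DNA replication genes were mostly not called, 20 of 29, with 8 higher and 1 lower (median 0.37). Orc1, which marks origins, averaged 33.5 ± 7.21 CPM in TAZ-S89A and 13.99 ± 2.80 CPM in YAP-5SA (1.26, SE 0.20), and Pole, a replicative polymerase subunit, averaged 172 ± 29.2 CPM in TAZ-S89A and 77.3 ± 16.2 CPM in YAP-5SA (1.16, SE 0.22). The count of higher members was 5 without YAP-5SA replicate 1 or 3, and with TAZ-S89A replicates 4 and 5 alone it was 14, beside 5 lower. Mitotic genes were not called at 19 of 26, higher at 6 and lower at 1 (median 0.31). Ndc80, of the outer kinetochore, averaged 58.6 ± 17.3 CPM in TAZ-S89A and 23.4 ± 8.44 CPM in YAP-5SA (1.32, SE 0.26), and the centromeric histone gene Cenpa averaged 334 ± 42.1 CPM in TAZ-S89A and 179 ± 6.35 CPM in YAP-5SA (0.90, SE 0.20). The higher mitotic count was 3 without any 1 of TAZ-S89A replicates 4 or 5 or YAP-5SA replicates 1 or 2. It was 2 with TAZ-S89A replicates 1 to 3 alone and 14 with replicates 4 and 5 alone, each with 3 lower. Cdk1, at 381 ± 126 CPM in TAZ-S89A and 568 ± 142 CPM in YAP-5SA, overlapped between the groups and was not called.

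Metabolic genes differed by pathway. Cholesterol synthesis and its regulators were higher at 15 of 24 tested members, against 26.7% of all genes, lower at none and not called at 9 (median 1.0). Summed levels were 1889 to 2547 CPM in TAZ-S89A and 1089 to 1273 CPM in YAP-5SA. Cyp51, the lanosterol demethylase, averaged 209.6 ± 62.7 CPM in TAZ-S89A and 56.4 ± 22.3 CPM in YAP-5SA (1.89, SE 0.30), Dhcr7, of the last step, 28.7 ± 3.90 CPM in TAZ-S89A and 8.42 ± 1.09 CPM in YAP-5SA (1.77, SE 0.17), and Insig1, which holds the SREBP processing complex in the endoplasmic reticulum, 128 ± 18.2 CPM in TAZ-S89A and 28.2 ± 3.69 CPM in YAP-5SA (2.18, SE 0.19). Without TAZ-S89A replicate 3, 2 members were called lower.

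In fatty acid metabolism the 2 stearoyl-CoA desaturases went in opposite directions. Scd1, the main liver enzyme, averaged 0.394 ± 0.139 CPM in TAZ-S89A and 119 ± 8.62 CPM in YAP-5SA (-8.28, SE 0.23), and Scd2 averaged 1219 ± 307 CPM in TAZ-S89A and 487 ± 45.5 CPM in YAP-5SA (1.32, SE 0.28). Fasn, the fatty acid synthase, was not called, at 462 ± 96.7 CPM in TAZ-S89A and 342 ± 61.6 CPM in YAP-5SA. In all, 4 of 21 members were higher, 6 lower and 11 not called, and the higher count was 7 without TAZ-S89A replicate 3 and 9 with replicates 4 and 5 alone. Of 27 genes of glycolysis and the hypoxia response, 8 were lower, 4 higher and 15 not called. With TAZ-S89A replicates 1 to 3 alone 13 were lower, and with replicates 4 and 5 alone 11 were higher. The shares called, 47.6% for fatty acid and 44.4% for glycolysis and hypoxia genes, were below the 54.4% of all genes. The glycolytic aldolase gene Aldoc averaged 1.51 ± 0.359 CPM in TAZ-S89A and 10.1 ± 2.85 CPM in YAP-5SA (-2.72, SE 0.24), and Slc16a3, a lactate exporter, averaged 0.968 ± 0.285 CPM in TAZ-S89A and 5.24 ± 0.521 CPM in YAP-5SA (-2.45, SE 0.24).

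NRF2 targets and glutathione genes, which defend against oxidants and electrophiles, were lower at 17 of 24 tested members, higher at none and not called at 7 (median -1.04). The aldehyde dehydrogenase gene Aldh3a1 had 41.9, 36.9, 80.99, 68.4 and 69.2 CPM in the TAZ-S89A libraries, against 1472, 2182 and 1411 CPM in the YAP-5SA libraries (-4.83, SE 0.33, adjusted p = 6.31e-08). The glutathione transferase gene Gsta4 averaged 8.32 ± 2.53 CPM in TAZ-S89A and 540.5 ± 92.1 CPM in YAP-5SA (-6.03, SE 0.29) and the quinone reductase gene Nqo1 averaged 1.05 ± 0.287 CPM in TAZ-S89A and 34.1 ± 11.6 CPM in YAP-5SA (-5.01, SE 0.26). Txnrd1, a thioredoxin reductase, averaged 335 ± 69.7 CPM in TAZ-S89A and 1004 ± 60.9 CPM in YAP-5SA (-1.58, SE 0.24). With TAZ-S89A replicates 4 and 5 alone, 2 members were higher. Genes of the unfolded protein and integrated stress responses were called at 8 of 22, 4 in each direction, and the lower count was 7 without TAZ-S89A replicate 3. Of these, the chaperone cofactor gene Sdf2l1 averaged 30.97 ± 14.5 CPM in TAZ-S89A and 86.4 ± 34.5 CPM in YAP-5SA (-1.48, SE 0.34), and Hspa5, the main chaperone of the endoplasmic reticulum, at 874 ± 313 CPM in TAZ-S89A and 1191 ± 657 CPM in YAP-5SA, was not called.

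Of 32 markers of hepatocytes, cells of the labelled tissue, liver, 23 were under 1 CPM in both groups. The summed level of all 32 was 35.2 to 51.1 CPM in TAZ-S89A and 825.5 to 918.8 CPM in YAP-5SA. A single gene, Apob, made up most of the YAP-5SA sum, at a mean of 729 CPM. Alb, which encodes serum albumin and defines hepatocytes, had 1 count over all TAZ-S89A libraries and 8 counts over all YAP-5SA libraries. Of 32 hepatocyte markers, 11 were abundant enough to be tested, and 7 of these were lower, 2 higher and 2 not called. The higher count was 1 without any 1 of TAZ-S89A replicates 1 to 3 or of the YAP-5SA replicates. Apob, the apolipoprotein of lipoprotein export, had 2.86, 2.02, 2.01, 2.52 and 1.37 CPM in the TAZ-S89A libraries, against 753, 664 and 770.1 CPM in the YAP-5SA libraries (-8.39, SE 0.29, adjusted p = 1.73e-10). The tyrosine breakdown enzyme gene Fah averaged 1.25 ± 0.316 CPM in TAZ-S89A and 48.9 ± 1.61 CPM in YAP-5SA (-5.32, SE 0.19), and Ass1, of the urea cycle, averaged 0.568 ± 0.279 CPM in TAZ-S89A and 20.9 ± 8.07 CPM in YAP-5SA (-5.29, SE 0.36). Of 17 tested liver transcription factor genes, 7 were lower, 2 higher and 8 not called, and the higher count was 1 without YAP-5SA replicate 1 or 2. The 52.9% called was near the 54.4% of all genes. Foxa2, Gata4 and Hnf4a were lower, at 0.379 ± 0.245 CPM in TAZ-S89A and 24.2 ± 2.25 CPM in YAP-5SA (-6.14, SE 0.37), 0.388 ± 0.215 CPM in TAZ-S89A and 17.9 ± 1.74 CPM in YAP-5SA (-5.64, SE 0.33) and 0.699 ± 0.0730 CPM in TAZ-S89A and 7.19 ± 0.562 CPM in YAP-5SA (-3.34, SE 0.19).

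Biliary and progenitor markers were split, with 9 of 17 higher, 7 lower and 1 not called (median 0.62). Against the lower keratins stood Spp1, the secreted phosphoprotein osteopontin, with 3351, 3374, 3653, 1775 and 1913 CPM in the TAZ-S89A libraries, against 191, 253 and 164 CPM in the YAP-5SA libraries (3.79, SE 0.40, adjusted p = 4.13e-06). Sox9, the duct transcription factor and a defining marker, averaged 18.5 ± 4.42 CPM in TAZ-S89A and 8.01 ± 1.65 CPM in YAP-5SA (1.21, SE 0.22). Oncofetal genes were lower at 8 of 12 members. Lin28b, which blocks let-7 maturation, averaged 0.0275 ± 0.0493 CPM in TAZ-S89A and 6.45 ± 1.12 CPM in YAP-5SA (-7.36, SE 0.47), and Igf2bp1, an RNA-binding protein of fetal tissue, averaged 40.7 ± 6.35 CPM in TAZ-S89A and 213 ± 35.2 CPM in YAP-5SA (-2.39, SE 0.18).

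Of 14 stellate cell markers, 8 were abundant enough to be tested, 6 higher and 2 lower, and 7 were under 1 CPM in both groups. Their summed level was lower in TAZ-S89A, at 1734 to 2397 CPM, against 4188 to 4496 CPM in YAP-5SA. Vim, a lower member of the list, averaged 1693 CPM in TAZ-S89A and 4293 CPM in YAP-5SA. Beside Hgf and Pdgfrb, Cygb, a globin of stellate cells, averaged 1.49 ± 0.270 CPM in TAZ-S89A and 0.00900 ± 0.0156 CPM in YAP-5SA and was 180.2-fold higher by pooled counts, 95% interval 32.04 to 7144, from 1 count in YAP-5SA. Reln, the secreted protein reelin, averaged 1.75 ± 1.23 CPM in TAZ-S89A and 0.0236 ± 0.0408 CPM in YAP-5SA and was 59.8-fold higher by pooled counts, 95% interval 20.2 to 292, from 3 counts in YAP-5SA. In RNA of whole cultures, fewer cells of a type and less RNA per cell cannot be told apart.

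Of 18 macrophage and leukocyte markers 9 were under 1 CPM in both groups, and of 15 endothelial markers 11 were. Of 14 tested macrophage and leukocyte markers, 11 were lower and none higher, and their summed level was 30.2 to 38.8 CPM in TAZ-S89A and 104 to 118 CPM in YAP-5SA. The complement genes C1qa, C1qb and C1qc had no count in TAZ-S89A, and averaged 2.50 ± 0.652 CPM, 1.47 ± 0.203 CPM and 1.37 ± 0.168 CPM in YAP-5SA. The macrophage receptor gene Csf1r averaged 1.88 ± 0.288 CPM in TAZ-S89A and 28.4 ± 3.67 CPM in YAP-5SA (-3.90, SE 0.17). Cd14 was well expressed in both groups, at 22.6 ± 3.89 CPM in TAZ-S89A and 37.3 ± 4.68 CPM in YAP-5SA (-0.72, SE 0.16). The pan-leukocyte gene Ptprc averaged 0.199 ± 0.123 CPM in TAZ-S89A and 0.181 ± 0.0510 CPM in YAP-5SA and was not called, and Adgre1, a macrophage marker, had no count in TAZ-S89A and averaged 0.211 ± 0.0774 CPM in YAP-5SA. The part of macrophage RNA in the immune genes below was not tested. Of 6 tested endothelial markers 4 were lower and 1 higher, and the defining markers Pecam1 and Cdh5 were near 0, at 0.0811 ± 0.0962 CPM in TAZ-S89A and 0.361 ± 0.0948 CPM in YAP-5SA and at 0.0827 ± 0.0752 CPM in TAZ-S89A and 0.123 ± 0.0713 CPM in YAP-5SA. Without YAP-5SA replicate 1, 2 endothelial markers were lower. The higher member, Flt1, averaged 8.16 ± 1.78 CPM in TAZ-S89A and 0.985 ± 0.260 CPM in YAP-5SA (3.05, SE 0.26). Stab1, a lower member, averaged 17.5 ± 3.90 CPM in TAZ-S89A and 28.9 ± 5.53 CPM in YAP-5SA (-0.73, SE 0.20). Of lymphocyte markers only Gzmb was tested, at 0.0641 ± 0.0254 CPM in TAZ-S89A and 0.346 ± 0.110 CPM in YAP-5SA. Of the erythroid markers, Alas2 averaged 1.08 ± 0.179 CPM in TAZ-S89A and 0.487 ± 0.116 CPM in YAP-5SA, and only 1 other was tested.

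Immune signalling genes were split by kind. Cytokines and chemokines were higher at 13 of 29 tested members, lower at 8 and not called at 8, and with no low-count filter 13 were lower. Il1rn, the antagonist of the interleukin 1 receptor, averaged 75.6 ± 12.1 CPM in TAZ-S89A and 2.21 ± 0.287 CPM in YAP-5SA (5.09, SE 0.22), and the chemokine gene Cxcl12, typical of stroma, averaged 25.1 ± 9.13 CPM in TAZ-S89A and 1.07 ± 0.296 CPM in YAP-5SA (4.54, SE 0.35). The alarmin Il33 averaged 2.95 ± 0.820 CPM in TAZ-S89A and 137 ± 27.8 CPM in YAP-5SA (-5.55, SE 0.25) and the membrane chemokine Cxcl16 0.336 ± 0.101 CPM in TAZ-S89A and 52.9 ± 11.9 CPM in YAP-5SA (-7.26, SE 0.24). Csf1, the growth factor of macrophages, was abundant in both groups, at 916 ± 135 CPM in TAZ-S89A and 915 ± 167 CPM in YAP-5SA, and was not called.

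Interferon-response genes were lower at 14 of 27 tested members, higher at 6 and not called at 7. In the oligoadenylate synthetase family, whose members are similar in sequence, the rule named Oas1a, Oasl1 and Oas3, all lower. Oas1a averaged 0.0330 ± 0.0197 CPM in TAZ-S89A and 4.11 ± 1.18 CPM in YAP-5SA (-6.92, SE 0.41), Oasl1 0.170 ± 0.0878 CPM in TAZ-S89A and 8.55 ± 0.318 CPM in YAP-5SA (-5.76, SE 0.29) and Oas3 0.143 ± 0.0558 CPM in TAZ-S89A and 3.98 ± 0.633 CPM in YAP-5SA (-4.84, SE 0.29). Oasl2, chosen after its values were seen, was higher, at 4.42 ± 1.12 CPM in TAZ-S89A and 0.881 ± 0.0660 CPM in YAP-5SA (2.32, SE 0.27). Irf1, a transcription factor that interferon induces, was higher, at 79.7 ± 5.52 CPM in TAZ-S89A and 42.4 ± 0.883 CPM in YAP-5SA (0.91, SE 0.14). Antigen presentation genes were higher at 7 of 19, lower at 6 and not called at 6 (median 0.39). Their summed level was higher in TAZ-S89A, at 718 to 982 CPM, against 471 to 580.5 CPM in YAP-5SA. The class I gene H2-D1 was called higher, although not without YAP-5SA replicate 1 or 3. The class II genes H2-Ab1, H2-Eb1 and H2-Aa had no count in TAZ-S89A and averaged 2.85 ± 0.822 CPM, 2.13 ± 0.467 CPM and 1.22 ± 0.228 CPM in YAP-5SA, the same low range as the complement genes of macrophages.

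In the Notch pathway 7 of 16 tested members were higher, 4 lower and 5 not called. The target gene Hey2 averaged 1.28 ± 0.199 CPM in TAZ-S89A and 0.00786 ± 0.0136 CPM in YAP-5SA and was 151-fold higher by pooled counts, 95% interval 26.8 to 5997, from 1 count in YAP-5SA. Nrarp, a feedback inhibitor, averaged 0.647 ± 0.221 CPM in TAZ-S89A and 7.59 ± 0.122 CPM in YAP-5SA (-3.60, SE 0.25). Notch1 and Notch2, the most abundant receptors, were not called, at 80.3 ± 13.3 CPM in TAZ-S89A and 80.8 ± 16.8 CPM in YAP-5SA and 138 ± 21.1 CPM in TAZ-S89A and 105 ± 21.5 CPM in YAP-5SA. Notch3 was lower, at 0.403 ± 0.276 CPM in TAZ-S89A and 2.87 ± 0.996 CPM in YAP-5SA (-2.91, SE 0.43), and Notch4 higher, at 1.67 ± 0.194 CPM in TAZ-S89A and 0.347 ± 0.141 CPM in YAP-5SA (2.26, SE 0.31).

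WNT pathway genes were lower at 11 of 25, higher at 6 and not called at 8. The ligands Wnt7a and Wnt9a averaged 2.71 ± 1.14 CPM in TAZ-S89A and 61.04 ± 3.96 CPM in YAP-5SA (-4.53, SE 0.28) and 4.57 ± 0.772 CPM in TAZ-S89A and 113 ± 7.25 CPM in YAP-5SA (-4.62, SE 0.17). Rnf43, a ubiquitin ligase that removes WNT receptors, averaged 2.22 ± 0.562 CPM in TAZ-S89A and 41.6 ± 7.59 CPM in YAP-5SA (-4.24, SE 0.22), and Ctnnb1, the gene of beta-catenin, averaged 393 ± 85.7 CPM in TAZ-S89A and 1070.0 ± 59.1 CPM in YAP-5SA (-1.45, SE 0.24). Lef1, a nuclear partner of beta-catenin, had 1.69, 2.02, 1.45, 6.59 and 6.33 CPM in the TAZ-S89A libraries and no count in YAP-5SA, at least 122-fold higher.

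TGF-beta and BMP genes were higher at 12 of 32, lower at 11 and not called at 9. The ligands differed in kind. Inhbb, an activin subunit, averaged 6.80 ± 0.681 CPM in TAZ-S89A and 0.0828 ± 0.0559 CPM in YAP-5SA (6.29, SE 0.33), Bmp2 averaged 0.0289 ± 0.0304 CPM in TAZ-S89A and 4.72 ± 0.387 CPM in YAP-5SA (-7.13, SE 0.41), and Bmp4, chosen after its values were seen, averaged 5.92 ± 0.952 CPM in TAZ-S89A and 96.4 ± 3.16 CPM in YAP-5SA (-4.03, SE 0.16). Among vasoactive peptides and their receptors Adm, the vasodilator adrenomedullin, had 1 count over all TAZ-S89A libraries against 88.2, 96.8 and 82.5 CPM in the YAP-5SA libraries, and was 14780.0-fold lower by pooled counts, 95% interval 2651 to 583700.0, from 1 count in TAZ-S89A. The receptor activity-modifying proteins, which set the ligand preference of the receptor Calcrl, differed in turn, Ramp3 at 53.1 ± 12.1 CPM in TAZ-S89A and 0.757 ± 0.188 CPM in YAP-5SA (6.12, SE 0.29) and Ramp1 at 0.190 ± 0.116 CPM in TAZ-S89A and 4.57 ± 0.513 CPM in YAP-5SA (-4.69, SE 0.35).

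In every TAZ-S89A library 5 genes exceeded 10 CPM while every YAP-5SA library was under 0.1 CPM, and 65 genes showed the reverse pattern. The 5 were Hgf, Bnc2, Eya4, Sult1c2 and Piezo2, the last chosen after its values were seen. Bnc2, a zinc finger factor, had 14.9, 14.7, 10.99, 14.9 and 14.4 CPM in the TAZ-S89A libraries and no count in YAP-5SA, at least 561-fold higher. Eya4, a transcriptional coactivator with phosphatase activity, averaged 55.4 ± 12.8 CPM in TAZ-S89A and 0.0337 ± 0.0294 CPM in YAP-5SA (10.56, SE 0.43). Sult1c2, a sulfotransferase, averaged 77.8 ± 26.2 CPM in TAZ-S89A and 0.0349 ± 0.0417 CPM in YAP-5SA (11.05, SE 0.56), and the mechanically gated channel gene Piezo2 averaged 16.2 ± 3.35 CPM in TAZ-S89A and 0.0427 ± 0.0407 CPM in YAP-5SA (8.49, SE 0.43). The neighbours Foxf1, a forkhead factor of mesenchyme, and Fendrr, a long noncoding RNA, shared their pattern, at 90.8 ± 34.2 CPM in TAZ-S89A and 0.160 ± 0.0371 CPM in YAP-5SA (9.13, SE 0.46) and 61.1 ± 13 CPM in TAZ-S89A and 0.0872 ± 0.0891 CPM in YAP-5SA (9.45, SE 0.44).

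On the other side, Anxa10, an annexin, had 1 count over the TAZ-S89A libraries against 264, 442 and 205 CPM in the YAP-5SA libraries, and was 50770.0-fold lower by pooled counts, 95% interval 9112 to 2005000.0, from 1 count in TAZ-S89A. Cpxm2, a carboxypeptidase-like protein, Ces2f, a carboxylesterase, Pygl, the liver glycogen phosphorylase, and Krt4, a keratin, had no count in TAZ-S89A. They averaged 31.99 ± 2.72 CPM, 23.7 ± 4.74 CPM, 14.5 ± 0.890 CPM and 13.5 ± 1.10 CPM in YAP-5SA. They were lower by at least 1767-fold, 1300.0-fold, 802-fold and 747-fold, in that order. Ano3, a member of the anoctamin family, averaged 0.00885 ± 0.0198 CPM in TAZ-S89A and 51.9 ± 1.95 CPM in YAP-5SA and was 8606-fold lower by pooled counts, 95% interval 1544 to 340000.0, from 1 count in TAZ-S89A, although a tested gene overlaps it.

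Fold changes were also unevenly spread over the chromosomes. On chromosome 17 the median was 1.0, and 548 of 818 tested genes were higher and 83 lower. Chromosome 4 had a median of 0.55, and chromosomes 5 and 8 of 0.41. On chromosome 14 it was -0.69, with 63 of 542 genes higher and 309 lower, and chromosomes 9 and 7 had -0.52 and -0.50. Tead3 lies on chromosome 17 and Lats2 on chromosome 14, and each changed less than the median of its chromosome. The medians of chromosomes 17 and 14 were 0.95 and -0.70 with TAZ-S89A replicates 1 to 3 alone, and 0.92 and -0.76 with replicates 4 and 5 alone. The files hold no DNA measurement, so copy number was not tested.

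**Figure D5:**
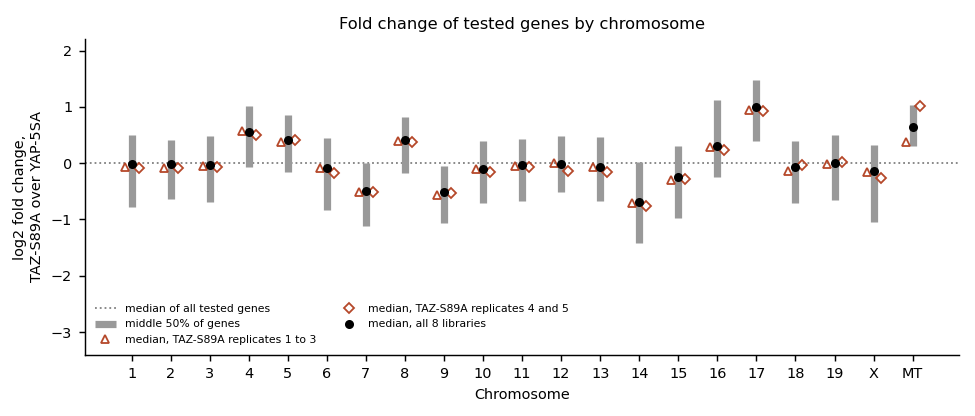
Median log2 fold change of TAZ-S89A over YAP-5SA for the tested genes of each chromosome (black points) with the middle 50% of genes (grey bars) and the medians from TAZ-S89A replicates 1 to 3 alone (triangles) or 4 and 5 alone (diamonds). Chromosome 17 lay highest, with a median of 1.0, and chromosome 14 lowest, with -0.69.

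Runs of at least 6 consecutive tested genes called in 1 direction numbered 76 higher and 74 lower. The longest higher run held 21 genes on chromosome 16, 84834891 to 90729960 (median 1.27), and included Adamts1 and Hunk. Others on chromosome 17 held 17 genes from 83851672 to 86145216 (median 1.38), 13 genes from 25773776 to 25861515 (median 1.15) and 13 genes from 34894559 to 35046997 (median 1.34). Both of the longest lower runs lay on chromosome 14. The first held 22 genes from 46379524 to 49066667 (median -1.47), Bmp4 among them, and the second 17 genes from 57689662 to 60388197 (median -1.11), beginning with Lats2. The next were runs over the Hoxb and Hoxc clusters that also held other genes. The first had 16 genes from 96194316 to 96759622 on chromosome 11, Skap1 among them. The second had 15 genes from 102706777 to 103146828 on chromosome 15, Calcoco1 among them.

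TAZ-S89A libraries of the first and second ID range, replicates 1 to 3 and replicates 4 and 5, were each set against YAP-5SA alone. The first fit called 9793 genes and the second 10986. Of 17095 genes tested in both fits, 7919 were called in both, 7787 of them in the same direction and 132 in opposite directions, so many calls were made in a single fit. Both fits share the YAP-5SA libraries, so they are not independent. Of the main regulators, Yap1 had log2 fold changes of -1.59 and -1.01 in the first and second fit.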

How the data were processed

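The 8 libraries, 5 of TAZ-S89A and 3 of YAP-5SA, were made from RNA purified with a Qiagen RNeasy kit, per the labels. Reads were aligned by the authors to GRCm38 with GSNAP, according to the submitters' processing notes. Which aligner version, counter, annotation release and strand setting were used is not given in the sources used. Each deposited table holds a count of uniquely aligned reads per Entrez gene model, and an RPKM adjusted by a size factor, per the file headers. The counts were tested and the RPKM were not used.

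Genes that pass filterByExpr by group (17497) were fitted with edgeR 4.0.16 in R 4.3.3, with TMM scaling, a robust quasi-likelihood model, group as the only term and Benjamini-Hochberg adjustment over all of them. Library totals were 20071144 to 49159713 counts. Bounds and 95% intervals cover counting error only. On simulated counts for this comparison (17127 genes), 100 genes were changed by 1 log2 unit, 100 by 2, and the others not at all. Of the first 100, 58% were recovered, and of the second 99%.

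The libraries and gene lists were chosen with earlier results of these data known. The genes named are 10 core pathway genes and, from each list, the 2 most abundant members and the 4 largest called changes at 1 CPM or more in a group. To these come the 12 highest and 12 lowest changes of all, given a mean log2 CPM of 2 or more, no overlap between groups and a full symbol, and defining cell type markers. A few genes that this rule names are not reported here. Others are said to be chosen after their values were seen. Symbols and positions are RefSeq's. Alternatives were RLE and upper-quartile scaling, DESeq2 1.42.0, limma-voom (limma 3.58.1), other low-count filters, a test against a log2 fold change of 1, all 11 libraries, the sample ID ranges as covariate or apart, similar libraries summed, and each library left out.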

Additional observations from a re-analysis of the deposited data

Results flagged for a closer look

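The named genes and the mitochondrial share of counts made 256 measures. In 31 of them, all named genes, 1 TAZ-S89A library stood apart from the other 4 by Dixon's gap test on log2(CPM + 0.1), with a gap over 0.71 of the group's range. Chance alone gives such a gap in about 1 in 20 groups, and the 3 YAP-5SA libraries were too few to be examined this way. Replicate 3 was the library apart at 19 of the 31, which were named with results known and are not independent of each other.

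Replicate 3 of TAZ-S89A was low for Tead1 (79.5 CPM), Rbms3 (3.99), Fat4 (51.2), Pole (121), Notch2 (102), Cbx2 (41.6), Bnc2 (10.99), Fendrr (38.2), CYTB (5736) and COX1 (4304). It was high for Ccng1 (164 CPM), Mdm2 (116), Cdk4 (1236), Ndc80 (89.4), Cyp51 (322), Herpud1 (87.6), Hspa5 (1426), Egfl7 (6.53) and Sgce (12.2).

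Replicate 5 was low for Fabp4 (0.177 CPM) and Car9 (0.487), replicate 1 was high for Csf1r (2.39), and replicate 4 was high for Peg3 (2.65) and Cdh5 (0.217). Single counts or a few counts set the rest apart. These were Lin28b (0.114 CPM), Adm (0.0227) and Alb (0.0227) in replicate 2, Cldn3 (0.0867) and Anxa10 (0.0434) in replicate 4, and Ctss (0.0443) and Ano3 (0.0443) in replicate 5.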

How the results depend on the processing

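The counts of calls stayed within 1.5 times the reported 9524 under all but 1 of the 21 alternatives. Tested against a log2 fold change of 1, 3881 genes were called, 1532 higher and 2349 lower, and 39.5% of calls were then higher, against 49.0%. With 1 library left out, 8145 to 10106 genes were called. With TAZ-S89A replicates 1 and 2 summed, and 4 and 5 summed, 8164 genes were called, 8103 of them among the 9524. Of 219 named genes called, 166 kept their call in every alternative that tested them, and most of the other 53 lost it only in that stricter test. Of 32 not called, 12 were called somewhere. S100a4 turned to 0.46 with the ID series as covariate, and with TAZ-S89A replicates 4 and 5 alone Ccl9 turned to -0.05. In all, 7029 of the 9524 calls held their direction in every alternative other than the strict filter, the stricter test and the replicates 4 and 5 fit. The strict filter, which tests 13173 genes, leaves fewer list members. No paired analysis was possible because replicate numbers only follow the order of deposition. On simulated counts with 100 genes changed by 1 log2 unit, 58% of these were called. The simulation changed far fewer genes than were called here, so that share may not hold for the real comparison. All 11 libraries gave 10545 calls among 18224 genes tested.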
